A study of Rattus norvegicus with 13 samples.

Results

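Cpe, Slit2, Foxp2, Col8a2, Cdhr1, Akap12, C1qtnf3, Abcc9, Abi3bp and Gask1b are 10 of the 14217 genes measured on 13 rat expression arrays of intrahepatic cholangiocarcinoma and of cells grown from it. They were chosen by their measured values: each was high in the fibroblastic line grown alone and was among the genes furthest lower in tumours or lost in the co-culture arrays. The choice set no numerical limit. The levels in both lines, in tumours and in the co-culture arrays all took part in the choice, so every comparison of the 10 genes between these groups is a description and carries no test. Where a gene had several probe sets, the one of highest mean stood for it, and all 10 genes were measured.

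All material was of Fischer 344 background. Tumours (4 arrays) arose after BDEsp cells, a spontaneously transformed derivative of the BDE1 cholangiocyte line with low-grade malignancy, were inoculated into the bile duct, and they were snap-frozen whole. A cholangiocarcinoma epithelial line, BDEsp-TDEH10 (clone H10, 3 arrays), and an α-SMA positive fibroblastic line, BDEsp-TDFE4 (clone E4, 4 arrays), were derived from such tumours, so each line is 1 clone. Both lines were cultured in a gel of rat tail collagen, either alone or together with the other line. Co-culture is represented by 1 array labelled as its epithelial cells and 1 array labelled as its fibroblastic cells, with a range of fibroblast plating densities and no density given for an array. The labels do not say whether arrays of a line came from separate cultures, so a p-value here reflects array-to-array spread, which may be technical.

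Cancer-associated fibroblasts build the dense stroma of cholangiocarcinoma, secreting collagens, matrix adaptors and signals that act on the tumour epithelium. Fibroblasts taken into culture keep many of these functions but can also carry programmes that differ from those of stromal cells in place. The 10 genes have varied roles: Slit2 and C1qtnf3 encode secreted signals, Col8a2 and Abi3bp matrix proteins, Cpe and Gask1b proteins of the secretory pathway, Abcc9 and Cdhr1 membrane proteins, Akap12 a kinase scaffold and Foxp2 a transcription factor.

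The lines grown alone and the tumours carried the markers of their labels, while each co-culture array also carried markers of the other line. Krt19, a keratin of bile duct epithelium, read 4.01 to 4.29 on the log2 scale in the fibroblastic line and 13.90 to 14.24 in the epithelial line, and Postn, a matrix protein of activated fibroblasts, read 13.99 to 14.10 and 3.60 to 4.05 in the same lines. The array labelled as fibroblastic cells in co-culture had Krt19 at 13.21, Epcam at 11.96 and Cdh1 at 12.03, all 3 close to the epithelial co-culture array at 13.49, 12.47 and 11.85. The epithelial co-culture array in turn had Postn at 10.83, Col1a1 at 12.61 and Thy1 at 11.07. The means of the epithelial line alone were 3.87, 5.73 and 4.77. Summed over 11 of 12 listed bile duct markers, the fibroblastic co-culture array read 15.81, the fibroblastic line 12.35 to 13.52 and the epithelial line 16.08 to 16.40. The sum in the fibroblastic line was mostly Spp1, at 12.12 to 13.49 there and 5.55 to 6.04 in the epithelial line. The 2 co-culture arrays correlated at r = 0.983 across genes, which are not independent replicates, with 352 genes over 2-fold apart. The fibroblastic array labelled 1 and the fibroblastic co-culture array differed by over 2-fold at 2673 genes. Epithelial array 1 and the epithelial co-culture array did so at 3060. Each co-culture array thus carried markers of both kinds of cell, and a level there cannot be read as that of the fibroblastic cells alone. In arrays of bulk RNA, fewer cells of a type and less RNA per cell cannot be told apart, and this holds for tumours too.

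The fibroblastic arrays also fell into pairs. Arrays 1 and 3 had 347 genes over 2-fold apart and arrays 2 and 4 had 135, against 1698 for arrays 1 and 2. Probe sets at the 3' and 5' ends of beta-actin, a measure of RNA integrity, differed by 1.72, 2.65, 1.05 and 2.01 on the log2 scale in fibroblastic arrays 1 to 4, by 0.86 to 1.47 in the epithelial line, by 0.61 to 0.75 in tumours, and by 0.96 and 0.85 in the epithelial and fibroblastic co-culture arrays. The 10 genes are given below with each fibroblastic array on its own for this reason.

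The 250 bases before the start of a gene were in the RefSeq promoter table for 8 of the 10 genes, on build GRCr8; Slit2 and Foxp2 were named only. Shown are the promoters of the genes whose patterns differed most: C1qtnf3 and Abcc9, which varied most and in opposite ways among the fibroblastic arrays, Cpe, the lowest in tumours, and Cdhr1, the exception in co-culture. They lie at chr2:61644066-61644315 (plus strand), chr4:177386349-177386598 (minus strand), chr16:29796457-29796706 (plus strand) and chr16:12883580-12883829 (minus strand). Each is written 5′ to 3′ on the strand of its gene, and capitals mark matches, on either strand, to the motifs given after them.
C1qtnf3: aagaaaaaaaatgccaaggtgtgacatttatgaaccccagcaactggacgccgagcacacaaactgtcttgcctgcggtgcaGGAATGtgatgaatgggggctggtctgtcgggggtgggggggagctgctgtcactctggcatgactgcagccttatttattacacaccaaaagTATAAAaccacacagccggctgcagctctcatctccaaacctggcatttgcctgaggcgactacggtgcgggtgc
Abcc9: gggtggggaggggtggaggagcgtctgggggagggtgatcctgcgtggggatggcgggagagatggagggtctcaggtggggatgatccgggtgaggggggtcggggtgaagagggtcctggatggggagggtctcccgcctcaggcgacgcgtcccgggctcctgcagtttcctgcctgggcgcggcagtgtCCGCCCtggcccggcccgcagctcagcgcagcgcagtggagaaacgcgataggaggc
Cpe: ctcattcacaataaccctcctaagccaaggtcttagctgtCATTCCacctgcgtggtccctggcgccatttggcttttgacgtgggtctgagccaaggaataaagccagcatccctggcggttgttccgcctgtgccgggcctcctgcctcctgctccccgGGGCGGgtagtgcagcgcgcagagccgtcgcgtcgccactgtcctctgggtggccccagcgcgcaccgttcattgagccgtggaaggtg
Cdhr1: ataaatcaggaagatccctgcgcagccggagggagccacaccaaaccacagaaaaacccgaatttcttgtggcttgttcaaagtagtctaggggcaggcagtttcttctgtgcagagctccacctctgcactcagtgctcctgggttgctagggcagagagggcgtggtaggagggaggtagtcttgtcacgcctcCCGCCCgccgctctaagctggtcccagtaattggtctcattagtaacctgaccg

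The 8 promoters shared no single motif. GGGCGG, the core of an SP1 site, was present in 5 of them (Abcc9, Akap12, Cdhr1, Col8a2 and Cpe) and in 30.5% of all 33469 promoters of the table. GGAATG, a TEAD site, was present in 4 (Abi3bp, C1qtnf3, Cpe and Gask1b) against 12.1% of all promoters, and TATAAA, the TATA box, only in C1qtnf3 among the 8, against 12.9%. CAGACA, bound by SMAD proteins, was found in Akap12 and in 17.2% of all. No match to TGANTCA (AP-1, 6.34% of all promoters), TGTTTAC (forkhead, 3.21%) or the CArG box (1.5%) lay in these windows. Motifs were searched on both strands, and none of the matches in the printed windows overlap. In C1qtnf3 the TATAAA began 75 bases before the start and the GGAATG 168 bases before it. Whether that TATAAA works as a TATA box was not tested. The windows of Cpe, Abcc9 and Col8a2 were rich in G and C (63.2%, 71.2% and 73.2%), against a median of 51.2% and quartiles of 44.0% and 60.0% over all promoters, while that of Abi3bp was at 40.8%.

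As a group the 10 genes were high in the fibroblastic line and far lower in tumours, yet the extent of the loss varied widely. All 10 passed the threshold (limma, adjusted p under 0.05) as higher in the fibroblastic than in the epithelial line, where 16.6% of all genes tested did so, and all 10 were lower in tumours than in the fibroblastic line, where 33.5% of all genes did so; both are contrasts used to pick them. All 10 also had every fibroblastic array above every epithelial array and every tumour below every fibroblastic array, as 19.2% and 32.0% of all genes did. The median difference between tumours and the fibroblastic line was -5.49 on the log2 scale over the 10 genes and -0.07 over all genes. The level in tumours was expressed as a percent of the fibroblastic level, from the difference between the log2 values. By this measure the median over the 10 genes was 1.81%, 2.65%, 2.15% and 2.38% in tumours 1 to 4, and 0.988% to 1.27% in the epithelial line. The other 521 genes that were called and at least 8-fold higher in the fibroblastic line had a median of 17.1% in tumours, with quartiles of 10.6% and 29.5%.

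In tumours 7 of the 10 genes kept a very small share of the fibroblastic level. A small share is not absence: Cpe read 6.0 to 7.08 and Akap12 5.77 to 6.20 in tumours, against array medians of 6.15 to 6.25. Foxp2 was lower, at 4.03 to 4.27. Cpe, Slit2, Foxp2, Col8a2, Cdhr1, Akap12 and C1qtnf3 kept 0.756% to 2.27% of the fibroblastic level in tumours and held places 1 and 3 to 8 from the lowest of the 531 genes. With the mean of their probe sets Slit2 kept 10.7% and Akap12 6.87%, while Cpe, Foxp2, Col8a2, Cdhr1 and C1qtnf3 had 1 probe set each. Grem1, a secreted BMP antagonist, held the place between Cpe and Slit2 at 1.11%, and Acan, a cartilage proteoglycan, followed C1qtnf3 at 2.43%; neither is among the 10, and both are named here after their values were seen. Gask1b, Abi3bp and Abcc9 kept 6.42%, 9.24% and 12.2%, at places 61, 109 and 184. These 3 were low in the fibroblastic co-culture array, at 1.69%, 2.9% and 1.12%. Of 20 listed fibroblast markers, all measured, 15 were lower and 3 higher in tumours than in the fibroblastic line. Over all genes 33.5% were lower and 27.3% higher. Cdh11 kept 6.52% and Pdgfrb 8.59%, which is in the range of Gask1b and Abi3bp, while Thy1 kept 15.8%, Col1a1 26.1%, Postn 31.0% and Acta2 57.6%. The matrix proteoglycan genes Dcn and Lum were higher in tumours, at 12.20 against 5.49 and 11.76 against 4.28, as was Fap, at 7.25 against 5.33. The summed level of 20 of 20 listed fibroblast markers was 15.87 to 16.31 in tumours, 17.28 to 17.51 in the fibroblastic line and 13.20 to 13.69 in the epithelial line, on the log2 scale. The sum in the epithelial line was mostly S100a4, at 13.05 to 13.58 there and 13.01 to 13.32 in the fibroblastic line.

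**Figure D1:**
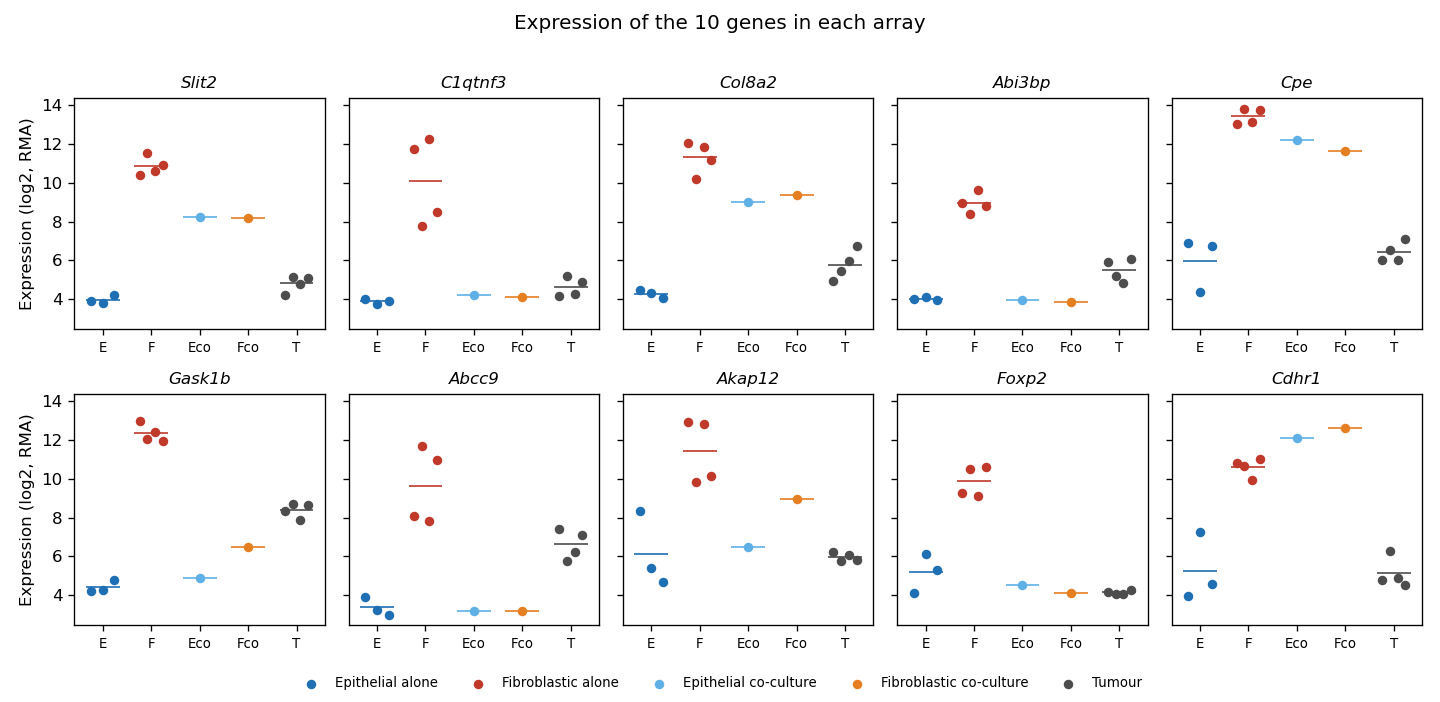
Expression of the 10 genes in each array, 1 panel a gene. The vertical axis is the deposited log2 value, each point is 1 array, and the short line is the mean of the group (E, epithelial line alone, 3 arrays; F, fibroblastic line alone, 4; Eco and Fco, epithelial and fibroblastic co-culture, 1 each; T, tumour, 4). All fibroblastic points lie above all tumour points in every panel, and Cdhr1 is the panel in which both co-culture points lie above the fibroblastic line.

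Slit2 encodes a secreted guidance protein that binds ROBO receptors and repels migrating axons and cells. It read 10.41, 11.52, 10.60 and 10.92 in the fibroblastic line, 4.21, 5.16, 4.80 and 5.07 in tumours 1 to 4, and 3.91, 3.79 and 4.20 in the epithelial line. Tumours were close to the epithelial line, with tumour 1 only just above its highest array. Between tumours and the fibroblastic line the difference was -6.05 ± 0.27 (SE, n = 4 and 4), or 66.4-fold lower. The co-culture arrays read 8.24 (epithelial) and 8.19 (fibroblastic), far above tumours and below every fibroblastic array. Slit2 also had the closest relation to the mean of the other 9 genes over the 13 arrays (r = 0.958, a description, since the arrays fall into groups). Of 3 probe sets for Slit2, a second gave the same order of groups, and the third was flat at 3.41 to 3.84 in all arrays.

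Of 12 measured of 16 listed genes of SLIT and ROBO guidance, 1 was higher and 6 were lower in tumours than in the fibroblastic line, where 27.3% and 33.5% of all genes were. Gpc1, a heparan sulphate proteoglycan that binds SLIT proteins, fell by 3.56 ± 0.19 (adjusted p = 1.51e-07), from 11.59 ± 0.17 (SD, n = 4) to 8.03 ± 0.38 (SD, n = 4). Ntn1, a netrin guidance cue, rose by 1.44 ± 0.30 (adjusted p = 0.00184). In the fibroblastic co-culture array 1 gene was higher and 5 were lower than in the line alone, against 4.78% and 3.63% of all genes, with Ntn1 higher by 4.38 ± 0.55 (adjusted p = 0.00251) and the netrin receptor gene Unc5c lower, at -2.68 ± 0.64 (adjusted p = 0.0406). Tests of a co-culture array rest on a single array assumed to vary like the lines grown alone.

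C1qtnf3 encodes a secreted adipokine of the C1q and tumour necrosis factor related family. Its level read 11.75, 7.76, 12.29 and 8.52 in the fibroblastic line, 4.17, 5.17, 4.25 and 4.88 in tumours, and 4.01, 3.73 and 3.90 in the epithelial line. Fibroblastic arrays 1 and 3 were thus far above arrays 2 and 4, and the highest to lowest differed by 23.1-fold, the widest spread of the 10. The co-culture arrays read 4.22 (epithelial) and 4.13 (fibroblastic), both just above the highest epithelial array and at the low end of the tumours. Tumours minus the fibroblastic line gave -5.46 ± 0.88 (SE, n = 4 and 4). The size of this value depended on the pair: tumours kept 0.592% against fibroblastic arrays 1 and 3 alone and 8.72% against arrays 2 and 4 alone, beside 2.27% against all 4. Against either pair, every tumour was below every fibroblastic array.

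In its family, 13 of 14 listed genes were measured, and 6 were higher and 5 lower in tumours than in the fibroblastic line. C1qtnf2, of the same family, fell by 2.92 ± 0.30 (adjusted p = 1.39e-05), from 9.54 to 6.63, and was lower in the fibroblastic co-culture array, at -2.82 ± 0.45 (adjusted p = 0.00803), the only gene of the 13 called there. Adipor2, a receptor for adiponectin, rose by 1.71 ± 0.25 (adjusted p = 0.000204). C1qtnf2 kept 13.2% of the fibroblastic level in tumours, beside 2.27% for C1qtnf3.

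Col8a2 encodes a chain of type VIII collagen, a short network-forming collagen of vessel walls and the corneal basement layer. Its values were 12.07, 10.22, 11.85 and 11.19 in the fibroblastic line, 4.95, 5.44, 5.96 and 6.73 in tumours, and 4.45, 4.32 and 4.03 in the epithelial line. Every tumour was above every epithelial array, by the smallest margin in tumour 1. The co-culture arrays were high, at 9.02 (epithelial) and 9.37 (fibroblastic). The difference between tumours and the fibroblastic line was -5.56 ± 0.44 (SE, n = 4 and 4), or 47.3-fold lower. Col8a2 therefore kept 2.11% in tumours and 25.7% in the fibroblastic co-culture array.

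Its partner chain Col8a1 fell by 3.42 ± 0.46 in tumours (adjusted p = 0.000106), from 12.30 ± 0.86 to 8.88 ± 0.53 (SD, n = 4 and 4), and kept 9.34%. All 9 listed network-forming collagens were measured, and none was called higher (limma; 1 at an unadjusted p under 0.05) and 3 were lower in tumours than in the fibroblastic line. Against the epithelial line 7 of the 9 were higher in tumours, where 18.9% of all genes were. Col4a1, a basement membrane collagen, fell by 0.90 ± 0.31 in tumours (adjusted p = 0.0288) and kept 53.7%, but in the fibroblastic co-culture array it was lower, at -3.92 ± 0.51 (adjusted p = 0.00291) and kept 6.61%. Col4a2 was lower there, at -3.53, and these 2 were the collagens of the list called in that array.

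Abi3bp encodes a matrix protein that binds collagen and other matrix partners. Its level was 8.96, 8.38, 9.63 and 8.80 in the fibroblastic line, 5.93, 5.21, 4.81 and 6.07 in tumours, and 3.98, 4.12 and 3.94 in the epithelial line. Each tumour was above every epithelial array and below every fibroblastic array. The co-culture arrays read 3.97 (epithelial) and 3.83 (fibroblastic), so the array labelled fibroblastic was below the lowest epithelial array. Between tumours and the fibroblastic line the difference was -3.44 ± 0.31 (SE, n = 4 and 4) and the fibroblastic co-culture array differed from it by -5.11. Like Gask1b and Abcc9, Abi3bp had every tumour above both co-culture arrays.

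All 13 matrix adaptors listed around Abi3bp were measured, and 2 were higher and 3 lower in tumours than in the fibroblastic line. Fbln5, an elastic fibre protein, fell by 4.36 ± 0.32 (adjusted p = 1.29e-06), kept 4.86% in tumours, and was also lower in the fibroblastic co-culture array, at -3.47 ± 0.53 (adjusted p = 0.00626). Abi3, the binding partner for which Abi3bp is named, rose by 1.60 ± 0.18 in tumours (adjusted p = 2.96e-05). Fbln1, another fibulin, moved in the opposite direction to Fbln5 in the fibroblastic co-culture array and was higher there by 5.19 ± 0.39 (adjusted p = 0.000198).

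Cpe encodes carboxypeptidase E, which trims basic residues from prohormones and sorts cargo into secretory granules. It read 13.06, 13.83, 13.14 and 13.79 in the fibroblastic line, 6.0, 6.55, 6.02 and 7.08 in tumours, and 6.88, 4.35 and 6.72 in the epithelial line. The ranges of tumours and the epithelial line overlapped, and the epithelial arrays themselves varied by 2.53. Tumours minus the fibroblastic line gave -7.05 ± 0.51 (SE, n = 4 and 4), or 132-fold lower, the lowest place among the 531 genes. In co-culture the level was 12.23 (epithelial) and 11.63 (fibroblastic), or 42.7% and 28.2% of the fibroblastic line. Cpe was thus high in both co-culture arrays and low in tumours, in arrays that all carried Krt19 and fibroblast markers.

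Of 18 measured of 19 listed genes of prohormone and carboxypeptidase processing, 6 were higher and 6 lower in tumours than in the fibroblastic line. Pam, which amidates peptide hormones, fell by 2.71 ± 0.21 (adjusted p = 2.17e-06), from 12.06 to 9.35, and was lower in the fibroblastic co-culture array, at -2.02 ± 0.32 (adjusted p = 0.00768). Cpn1, a liver carboxypeptidase of plasma, rose by 2.23 ± 0.61 in tumours (adjusted p = 0.00921). The summed level of 12 of 12 listed hepatocyte markers was 17.18, 9.74, 15.93 and 17.19 in tumours 1 to 4 and 8.46 to 9.18 in the fibroblastic line, and its part in the Cpn1 value was not tested. Cpz, a carboxypeptidase of the matrix, was higher in the fibroblastic co-culture array by 1.82 ± 0.25 (adjusted p = 0.00401).

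Gask1b encodes a Golgi protein of the secretory pathway kinase family. Its values were 12.97, 12.05, 12.43 and 11.93 in the fibroblastic line, 8.34, 8.70, 7.85 and 8.65 in tumours, and 4.23, 4.25 and 4.78 in the epithelial line. Tumours lay midway between the lines on the log2 scale, with no overlap on either side. The difference between tumours and the fibroblastic line was -3.96 ± 0.26 (SE, n = 4 and 4), or 15.6-fold lower. The co-culture arrays read 4.89 (epithelial) and 6.46 (fibroblastic), so all 4 tumours exceeded both. On its second probe set the epithelial and fibroblastic co-culture arrays read 4.46 and 4.44, inside the epithelial range of 4.16 to 4.52. The level above that line was thus seen on 1 of the 2 probe sets.

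Of 7 measured of 9 listed secretory pathway kinases, 1 was higher and 4 were lower in tumours than in the fibroblastic line, and none was called in the fibroblastic co-culture array (adjusted p under 0.05, limma; 0 at an unadjusted p under 0.05). Fam20c, the Golgi casein kinase, rose by 1.01 ± 0.34 (adjusted p = 0.0232), and Dipk1b fell by 1.79 ± 0.25 (adjusted p = 0.000132). Gask1a, the nearest relative of Gask1b, was not analysed here.

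Abcc9 encodes the sulphonylurea receptor subunit of ATP-sensitive potassium channels in vascular smooth muscle and pericytes, where Kcnj8 forms the pore. It read 8.07, 11.70, 7.83 and 10.97 in the fibroblastic line, 7.40, 5.76, 6.20 and 7.08 in tumours, and 3.92, 3.23 and 2.98 in the epithelial line. Fibroblastic arrays 2 and 4 were above arrays 1 and 3, the reverse of C1qtnf3, with 14.7-fold between the highest and the lowest, and tumour 1 was close to fibroblastic array 3. The co-culture arrays read 3.19 (epithelial) and 3.16 (fibroblastic), inside the epithelial range. Tumours kept 39.6% against fibroblastic arrays 1 and 3 alone and 3.78% against arrays 2 and 4 alone, beside 12.2% against all 4, so the tumour share of this gene rests on which pair is taken. Of its 3 probe sets, 2 gave this pattern, and the third differed little between groups (-0.44 for tumours minus the fibroblastic line).

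Kcnj8 followed the same split of the fibroblastic arrays, at 5.77, 8.79, 6.04 and 8.55, and read 7.82, 6.71, 6.69 and 7.47 in tumours 1 to 4 against 4.54, 5.32 and 5.41 in the epithelial line. Its co-culture values of 5.15 and 5.39 lay within the epithelial range. Tumours differed from the fibroblastic line by -0.12 ± 0.66, which did not pass the test (adjusted p = 0.888), and were above the epithelial line by 2.08 ± 0.71 (adjusted p = 0.0309). Rgs5, a marker of pericytes, was 3.97 to 4.64 in the fibroblastic line, 4.45 to 4.75 in the epithelial line, and 9.81, 8.61, 8.37 and 9.40 in tumours, and all 3 genes were higher in tumours 1 and 4 than in tumours 2 and 3. Of the other listed pericyte and stellate cell markers, Pdgfrb, Des, Lrat, Reln, Ngfr, Cygb and Gfap had this order too. Mcam (7.10, 7.72, 7.66 and 7.22 in tumours 1 to 4) and Cspg4 (5.89, 6.30, 6.35 and 6.02) had the reverse order. Notch3, Anpep and Hand2 had neither. Of the 14 listed pericyte and stellate cell markers, all measured, 7 were higher and 5 lower in tumours than in the fibroblastic line, with Pdgfrb at -3.54 and Mcam at -2.42 among the lower and Rgs5 at 4.83. Their summed level was 11.66, 11.19, 11.24 and 11.69 in tumours 1 to 4, 11.78 to 12.39 in the fibroblastic line and 9.06 to 9.48 in the epithelial line, and that of 11 of 12 listed endothelial markers was 10.64, 10.35, 10.21 and 11.13 in the tumours. The hepatocyte sums were also higher in tumours 1 and 4 (17.18 and 17.19) than in tumours 2 and 3 (9.74 and 15.93). The part of these cells in the tumour level of Abcc9 was not tested. Of the 10 listed genes of the channel and of ABCC transporters, all measured, 4 were higher and 3 lower in tumours than in the fibroblastic line, with Abcc2, a canalicular export pump, higher by 2.16 ± 0.62 (adjusted p = 0.0113; 7.30, 4.27, 4.78 and 7.31 in tumours 1 to 4, the same tumours high as for the hepatocyte sums) and Abcc1 lower, at -1.37 ± 0.21 (adjusted p = 0.000294). None was called in the fibroblastic co-culture array (limma; 1, Abcc5, at an unadjusted p under 0.05).

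**Figure D2:**
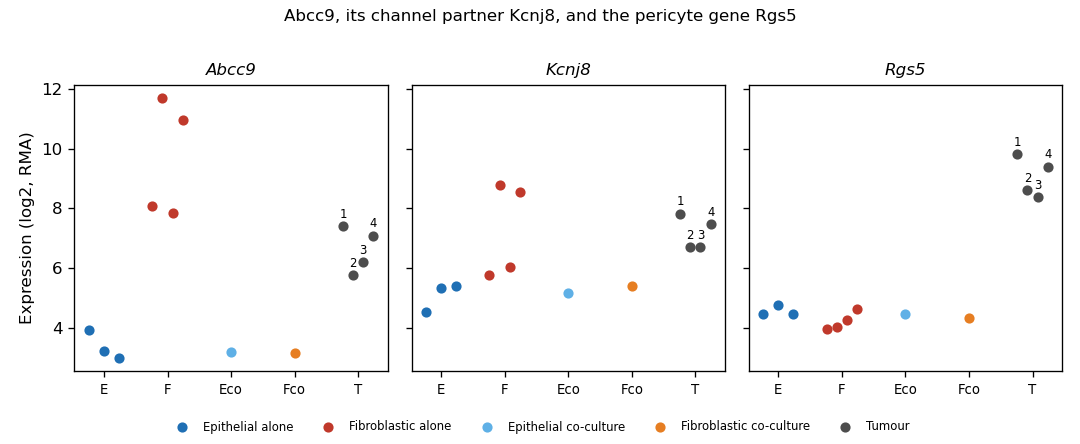
Abcc9, its channel partner Kcnj8 and the pericyte gene Rgs5 in each array. The vertical axis is the deposited log2 value, each point is 1 array, group letters are those of the panels by gene, and tumours carry their replicate number. Tumours 1 and 4 are the highest tumours in all 3 panels, while Rgs5 is at or below 4.64 in every fibroblastic array.

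Akap12 encodes a scaffold that anchors protein kinases A and C at the cell membrane. It read 12.96, 9.83, 12.82 and 10.15 in the fibroblastic line, 6.20, 5.77, 6.06 and 5.81 in tumours, and 8.32, 5.37 and 4.69 in the epithelial line. Tumours lay within the range of the epithelial line, which was set by a single high array, and varied by only 0.43 among themselves. The fibroblastic arrays split by pairs as for C1qtnf3, with 8.74-fold between the highest and the lowest. The co-culture arrays differed from each other, at 6.50 (epithelial) and 8.96 (fibroblastic). Between tumours and the fibroblastic line the difference was -5.48 ± 0.87 (SE, n = 4 and 4), and tumours kept 0.82% against arrays 1 and 3 alone and 6.12% against arrays 2 and 4 alone. The fibroblastic co-culture array kept 6.57% and 49.1% against the same pairs. The second probe set of Akap12 read 9.60, 6.40, 9.68 and 6.86 in the fibroblastic line and 6.08, 5.77, 5.81 and 5.90 in tumours. On it tumours differed from the fibroblastic line by only -2.25.

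Among 14 measured of 15 listed genes of kinase anchoring and protein kinase A, 1 was higher and 9 were lower in tumours than in the fibroblastic line. Over all genes the shares were 27.3% and 33.5%. Prkar2b, a regulatory subunit of protein kinase A, fell by 3.61 ± 0.18 (adjusted p = 9.29e-08), from 8.50 ± 0.35 to 4.89 ± 0.18 (SD, n = 4 and 4). Prkar1b, another regulatory subunit, rose by 1.17 ± 0.24 (adjusted p = 0.00179). Prkar2b was the only gene of the list called in the fibroblastic co-culture array, lower, at -1.26 ± 0.31 (adjusted p = 0.0475).

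Foxp2 encodes a forkhead transcription factor known from speech and lung development. It read 9.28, 10.51, 9.13 and 10.62 in the fibroblastic line, 4.16, 4.07, 4.03 and 4.27 in tumours, and 4.08, 6.11 and 5.31 in the epithelial line. Tumours varied by only 0.24 and sat at the bottom of the epithelial range, with tumours 2 and 3 below it. The co-culture arrays, at 4.50 (epithelial) and 4.12 (fibroblastic), were within the epithelial range. Tumours minus the fibroblastic line gave -5.75 ± 0.44 (SE, n = 4 and 4), and the fibroblastic co-culture array differed from that line by -5.76. Foxp2 was thus at the level of the epithelial line or lower in every array other than the fibroblastic line alone.

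Of 10 measured of 13 listed forkhead genes and partners, 2 were higher and 3 lower in tumours than in the fibroblastic line. Foxf1, a mesenchymal forkhead factor of gut and lung, fell by 2.69 ± 0.24 (adjusted p = 5.5e-06) and was lower in the fibroblastic co-culture array, at -1.86 ± 0.39 (adjusted p = 0.0266). Foxs1 was lower in that array, at -2.91 ± 0.56 (adjusted p = 0.0174). Foxp4, of the same subfamily as Foxp2, rose in tumours by 0.91 ± 0.17 (adjusted p = 0.000986). Foxp1, also of that subfamily, was lower in tumours, at -1.78 ± 0.13 (adjusted p = 1.02e-06).

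Cdhr1 encodes a cadherin-related protein of photoreceptor outer segments. It read 10.83, 10.64, 9.94 and 11.05 in the fibroblastic line, 4.76, 6.28, 4.90 and 4.52 in tumours, and 3.95, 7.24 and 4.58 in the epithelial line. All tumours lay within the epithelial range. Both co-culture arrays were above every fibroblastic array, at 12.09 (epithelial) and 12.60 (fibroblastic), or 278% and 397% of the fibroblastic mean. The difference between tumours and the fibroblastic line was -5.50 ± 0.65 (SE, n = 4 and 4). Among the other 521 genes high in the fibroblastic line, 36 (6.91%) also exceeded every fibroblastic array in the fibroblastic co-culture array. Cdhr1 was the gene least related to the mean of the others (r = 0.659, a description over 13 arrays), and it was the only one of the 10 not split between fibroblastic arrays 1 and 3 and arrays 2 and 4.

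Of 11 measured of 14 listed cadherin-related genes, 4 were higher and 5 lower in tumours than in the fibroblastic line. Fat4, a large atypical cadherin, fell by 4.61 ± 0.34 (adjusted p = 1.42e-06) and kept 4.1% in tumours, and Cdhr5, an epithelial brush border cadherin, rose by 3.07 ± 0.55 (adjusted p = 0.000732). In the fibroblastic co-culture array none was called higher (limma; 0 at an unadjusted p under 0.05) and 3 were lower, among them Fat4 at -3.80 ± 0.61 (adjusted p = 0.00822) and Cdh11, a cadherin of mesenchymal cells, at -4.13 ± 0.45 (adjusted p = 0.00141). The higher level of Cdhr1 in the fibroblastic co-culture array, where Cdhr1 itself was not called, was not shared by a called gene of this list.

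**Figure D3:**
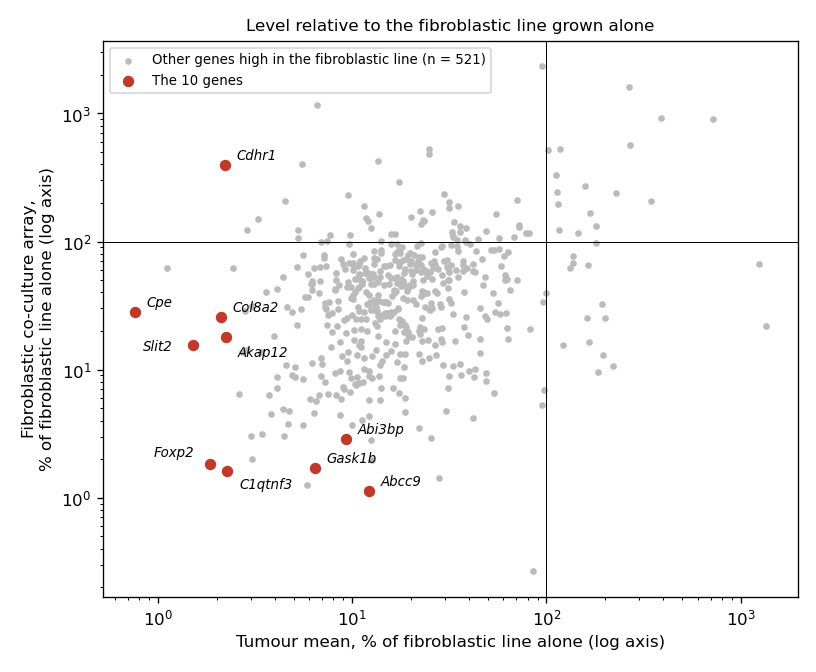
Level of each gene high in the fibroblastic line, as a percent of that line's mean, in tumours (horizontal, mean of 4 arrays) and in the fibroblastic co-culture array (vertical), both on log axes. Red points are the 10 genes, grey points the other 521 genes called and at least 8-fold higher in the fibroblastic line, and lines mark 100%. Cpe, Slit2, Col8a2 and Akap12 lie at 15.6% to 28.2% in co-culture with 0.756% to 2.24% in tumours, Abcc9 and Abi3bp keep more in tumours than in co-culture, and Cdhr1 lies at 397%.

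The co-culture arrays divided the 10 genes, a split that follows from the choice, since genes were picked for loss in tumours or in co-culture. The calls given here describe single arrays that took part in the choice, and nothing is read from them. In the fibroblastic co-culture array, 5 were called lower than in the line alone (Slit2, Foxp2, Abcc9, Abi3bp and Gask1b), against 3.63% of all genes, and 4 to 7 were with an array left out. Abcc9 was not called without epithelial array 2 or 3 or fibroblastic array 4, nor with the mean of its probe sets, where it differed by -3.97 instead of -6.48. C1qtnf3 was called in 1 fit of all 13 arrays, with the lowest 25% of genes left out and without fibroblastic array 2; without the latter Col8a2 was called too. Without epithelial array 2, Cpe was called lower and Cdhr1 higher. By range, 9 were below every fibroblastic array, against 27.5% of all genes, and Cdhr1 was above, against 30.7%. In the epithelial co-culture array, 4 were called higher than in the epithelial line (Cpe, Slit2, Col8a2 and Cdhr1), against 4.87% of all genes, and these differed by 6.24, 4.28, 4.76 and 6.83. By range 6 were above every epithelial array, with C1qtnf3 and Gask1b added, against 25.7% of all genes, in a contrast whose arrays also took part in the choice, and none was called lower (limma; 0 at an unadjusted p under 0.05) against 2.37%. The other 6 lay between -0.67 (Foxp2) and 0.47 (Gask1b). Foxp2, Abcc9 and Abi3bp were within the epithelial range or below it in both co-culture arrays. Of the other 521 genes, 40 (7.68%) were so placed in the fibroblastic co-culture array and 54 (10.4%) in the epithelial one. Of the 20 fibroblast markers, 6 were called lower in the fibroblastic co-culture array than in the line alone; Fn1 kept 102%, Vim 103%, Thy1 115% and Col1a1 62.6% of the fibroblastic level, while Postn kept 7.24%, Cdh11 5.72% and Mgp 0.266%. The median of the 10 genes there was 9.25%, against 40.6% for the other 521 genes, and in the epithelial co-culture array 3.22% against 33.1%.

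Set against the epithelial line, tumours divided the 10 genes as well, in a contrast whose arrays on both sides had taken part in the choice. Gask1b was 15.6-fold higher in tumours (log2 difference 3.96 ± 0.28, SE, n = 4 and 3) and Abcc9 9.42-fold (3.24 ± 0.88), each in 4 of 4 tumours. With the mean of its probe sets Abcc9 differed by 1.67 and did not pass the threshold. Abi3bp was higher by 1.49 ± 0.33, Col8a2 by 1.51 ± 0.47 and Slit2 by 0.85 ± 0.29. These 5 of 10 passed the threshold, as did 18.9% of all genes, and none of the 10 was called lower (limma; 0 at an unadjusted p under 0.05), as 33.2% of all genes were. With C1qtnf3, 6 of 10 had every tumour above every epithelial array, beside 21.3% of all genes. Of the other 521 genes high in the fibroblastic line, 447 (85.8%) had every tumour above every epithelial array. Since the genes were chosen on these arrays, nothing is read from these shares.

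The remaining 5 genes did not pass that threshold. C1qtnf3 differed by 0.74 (95% interval -1.36 to 2.84), Cpe by 0.42 (-0.79 to 1.63), Cdhr1 by -0.14 (-1.69 to 1.40), Akap12 by -0.16 (-2.25 to 1.92) and Foxp2 by -1.03 (-2.09 to 0.02); the values of Cdhr1 and Akap12 changed sign when arrays were centred on their medians. For Cpe, Cdhr1, Akap12 and Foxp2 at least 1 tumour lay inside the epithelial range, so those ranges overlapped. The calls of Slit2 and Col8a2 depended on single arrays. Slit2 was not called without tumour 2, 3 or 4 or epithelial array 1 or 2, nor Col8a2 without tumour 4 or epithelial array 2 or 3. Both were not called after quantile normalization (0.56 and 1.16), nor Slit2 with the mean of its probe sets (0.32). Without tumour 4 or without epithelial array 2, 3 genes were called higher, and without epithelial array 1 Foxp2 was called lower, at -1.58. Tumours also carried markers of cells in neither line. Summed macrophage markers (12 of 12 measured) read 14.62 to 14.98 against 8.48 to 9.72 in the fibroblastic and 8.66 to 8.82 in the epithelial line, and summed lymphocyte markers (11 of 12) 10.86 to 11.63 against 7.93 to 8.40 and 8.19 to 8.47. Summed portal fibroblast and mesothelial markers (8 of 10) read 11.08 to 11.89 in tumours and 11.99 to 12.36 in the epithelial line. Summed nerve markers (5 of 8) read 8.34 to 8.60 and 8.97 to 9.42. Both epithelial sums rest largely on 1 gene, Msln at 11.68 to 12.17 and Mbp at 8.28 to 8.96. Gene by gene, 2 portal markers were called higher and 1 lower in tumours than in the epithelial line. Of the nerve markers, 3 were higher and 2 lower, beside 18.9% and 33.2% of all genes. The part of such cells in these differences was not tested.

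Among the fibroblastic arrays, 9 of the 10 genes followed the split by pairs. Col8a2, Akap12, C1qtnf3, Abi3bp and Gask1b were higher in both arrays 1 and 3 than in both arrays 2 and 4, and Cpe, Slit2, Foxp2 and Abcc9 were higher in arrays 2 and 4. Over all genes 59.7% were split in either direction, and 76.6% of the 531 genes high in the fibroblastic line. The ratio of the highest to the lowest array ran from 1.7-fold for Cpe to 23.1-fold for C1qtnf3. Acta2, the smooth muscle actin that marks the line, was split as well, at 12.13, 9.29, 12.04 and 10.29. Arrays 2 and 4 had the larger difference between the ends of beta-actin, and its part in the split was not tested.

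**Figure D4:**
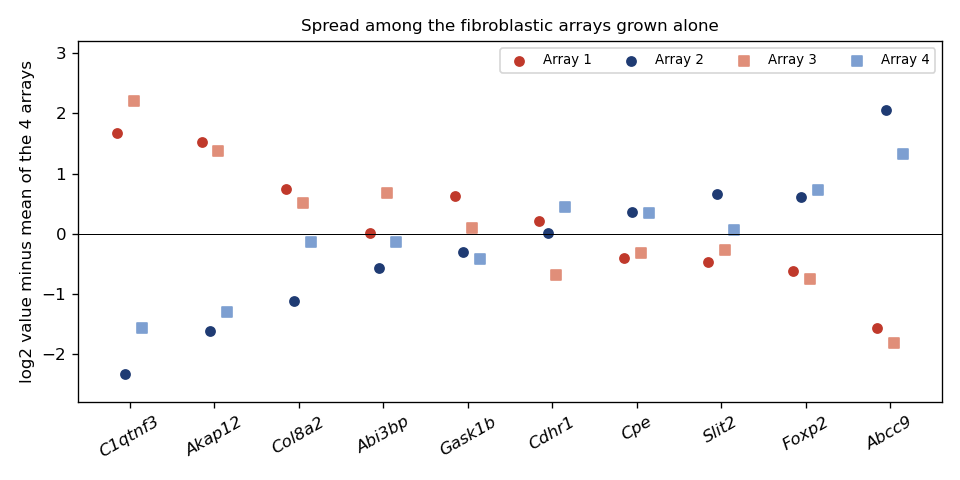
Spread of the 10 genes among the 4 arrays of the fibroblastic line grown alone. The vertical axis is the log2 value minus the mean of the 4 arrays, and each point is 1 array. For 9 genes arrays 1 and 3 (red) lie both above or both below arrays 2 and 4 (blue). C1qtnf3 and Abcc9 are at the extremes, in opposite directions.

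The genes whose pattern over the 13 arrays was most like the mean of the 10 were Fabp3 (r = 0.997), Fermt2 and Tmx3 (both 0.993), Zfp354c (0.990), Bambi and Ccdc65 (both 0.989), Slc2a13 (0.987) and Klhl30 (0.986). Fabp3, a fatty acid binding protein of heart and muscle, read 10.75 to 11.51 in the fibroblastic line, 6.47 to 6.89 in tumours, 5.75 to 5.90 in the epithelial line and 7.99 and 8.02 in the epithelial and fibroblastic co-culture arrays. Bambi, a decoy receptor of the TGF-beta family, was 4.82 higher in the fibroblastic than in the epithelial line and differed by -3.86 between tumours and the fibroblastic line. Over the 117 measured genes related to the 10 by family or pathway, 27 (23.1%) were higher and 47 (40.2%) lower in tumours than in the fibroblastic line, beside 27.3% and 33.5% of all genes. Against the epithelial line 48 (41.0%) were higher and 19 (16.2%) lower in tumours, beside 18.9% and 33.2%. In the fibroblastic co-culture array 3 (2.56%) were higher and 17 (14.5%) lower than in the line alone, beside 4.78% and 3.63%. The median differences of the 117 were -0.13, 0.45 and -0.01, against -0.07, -0.17 and 0.03 over all genes.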

How the data were processed

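Total RNA was extracted with Trizol and hybridized as biotin-labelled cRNA to single-colour Affymetrix rat arrays, per the labels' protocols. The deposited values are log2 expression levels that the authors computed with RMA, per the submitters' processing notes; the version, and which arrays were normalized in 1 run, the sources used here do not give. That they are on a log2 scale was taken from their span (2.94 to 14.69), and array medians ran from 6.15 to 6.25. The fits used them as they stand.

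Of 31099 probe sets, 57 were controls, 20826 named 1 gene, 436 several and 9780 none. Symbols were updated by Entrez identifier for 20758, by accession for 2 and kept for 66, and 4525 of the 14217 genes had several probe sets. The 10 genes had 16 probe sets, all with a lower mean in tumours than in the fibroblastic line, 14 of them by over 1 on the log2 scale. Number of arrays limits the precision; no detection call was used, and RMA values have no true zero, so a low percent kept includes background.

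Group means were compared with limma (version 3.58.1, R 4.3.3) by its moderated two-sided test, with Benjamini-Hochberg adjustment over the 14217 genes and a threshold of 0.05 for calling a gene. The 9 arrays of the lines, alone or in co-culture, were fitted together, as were the 11 arrays of tumours and of the lines alone. The fits were tested on simulated data. Comparisons that share the fibroblastic or epithelial arrays are not independent. A percent kept is the linear ratio to the mean log2 value of the 4 fibroblastic arrays. Tables used pandas 2.3.3 and numpy 2.4.6 under Python 3.11.15, and matplotlib 3.10.9 drew the plots.

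The 10 genes, the lists of related genes and markers, and the tests were chosen with earlier results of these data known. Related genes were named as the called genes of largest and smallest difference in a list, and the 8 most alike by correlation. Kcnj8, Rgs5, Grem1, Acan, Abcc5, Dcn, Lum, Fap, Mcam, Cdh11, Fn1, Vim and Mgp were named after their values were seen. So were Msln, Mbp, Spp1, S100a4, Foxp1, Cspg4, Des, Lrat, Reln, Ngfr, Cygb, Gfap, Notch3, Anpep and Hand2. Summed levels are log2 of summed linear values. Alternatives were 1 fit of all 13 arrays, quantile normalization, centring on the median, the lowest 25% of genes left out, averaging a gene's probe sets, trend with robust moderation, a block for the replicate number, leaving out each array, and limits of 4-fold and 16-fold; leaving out either pair of fibroblastic arrays was added after seeing the data.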

Additional observations from a re-analysis of the deposited data

Results flagged for a closer look

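Co-culture gave opposite directions for 5 of the 10 genes, according to which line served as the reference, and this difference was not tested. The genes were chosen as high in the fibroblastic line, so any level between the 2 lines gives opposite directions, and nothing is read from this. The epithelial co-culture array was above every epithelial array, and the fibroblastic co-culture array was below every fibroblastic array. The differences were 6.24 and -1.83 for Cpe, 4.28 and -2.68 for Slit2, 4.76 and -1.96 for Col8a2, 0.34 and -5.95 for C1qtnf3, and 0.47 and -5.88 for Gask1b. Each is given first for the epithelial and then for the fibroblastic array. For C1qtnf3 the epithelial co-culture array read 4.22, against 4.01 in the highest epithelial array. On the second probe set of Gask1b the epithelial co-culture array read 4.46, inside the epithelial range of 4.16 to 4.52. The 2 arrays themselves read within 0.60 of each other for Cpe, the smallest gap was for Slit2 (8.24 and 8.19), and the largest for Gask1b (4.89 and 6.46). Both carried epithelial and fibroblast markers. No array of the 10 genes stood apart from the others of its group in tumours or in the fibroblastic line by Dixon's test; groups of 3 were not examined.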

How the results depend on the processing

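All 10 genes stayed called higher in the fibroblastic than in the epithelial line, and lower in tumours than in the fibroblastic line, under every alternative run for those comparisons. Against the epithelial line, 3 of the 10 were called higher after quantile normalization and with the mean of probe sets, and 3 to 5 with an array left out; called lower were 1 after quantile normalization, 1 with the replicate block and 0 to 1 with an array left out. With the lowest 25% of genes left out, 2383 genes in all were called higher in tumours than in the fibroblastic line and 1742 than in the epithelial line, from fewer genes tested. Genes called lower in the epithelial co-culture array numbered 820 in 1 fit of 13 arrays and 162 to 321 with an array left out, and those lower in the fibroblastic co-culture array 932 without fibroblastic arrays 1 and 3. Among the 10, 4 to 7 were called lower and 0 to 1 higher in that array with an array left out.

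The median percent kept by the 10 with the mean of probe sets was 4.57 in tumours, 14.5 in the fibroblastic and 7.65 in the epithelial co-culture array. Without fibroblastic arrays 2 and 4 it was 5.09 in the fibroblastic co-culture array; without arrays 1 and 3 it was 3.52 in tumours and 7.76 in the epithelial co-culture array; with an array left out it was 1.95 to 2.84 in tumours. Genes high in the fibroblastic line numbered 865 at 4-fold and 343 at 16-fold.

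Values that changed sign were none of them called. For tumours against the epithelial line, centring gave 0.05 for Cdhr1 and 0.03 for Akap12, and Akap12 was at 0.04 with the mean of probe sets and 0.08 with the replicate block. With an array left out Cpe ranged from -0.39 to 0.87, Cdhr1 from -0.80 to 0.85 and Akap12 from -0.88 to 0.93. For the epithelial co-culture array the ranges were -0.34 to 1.47 for Akap12, -0.38 to 0.08 for Abcc9 and -0.08 to 0.01 for Abi3bp. The cause was not tested.

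The labels do not say whether the replicate numbers pair the arrays. Same-numbered deviations correlated at -0.148 to 0.143, which with so few arrays in a group neither shows nor excludes pairing. With the number as a block, 2030 genes were called higher in the fibroblastic than in the epithelial line, 4653 lower in tumours than in the fibroblastic line and 2333 higher than in the epithelial line; there Col8a2 (1.37) was not called and Foxp2 (-1.18) was called lower. With an own-numbered array in the other group, 4 of 10 arrays correlated best with it, which does not settle the pairing either.

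The limits are the number of arrays, 1 for each co-culture, and the background in low values, which no detection call bounds here.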
